A study of Mus musculus with 12 samples.

Results

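The genes described here encode the proteins of the cytosolic ribosome, the particle that translates mRNA in the cytoplasm. They were taken by name: each gene with a probe set of 1 symbol and a symbol starting with Rpl, Rps or Rplp, leaving out the S6 kinases (Rps6k) and pseudogenes (-ps). That gave 50 of the 18193 genes measured: 20 proteins of the large subunit, 21 of the small subunit, the stalk proteins Rplp0 and Rplp2, 6 paralogs (Rpl3l, Rpl7l1, Rpl22l1, Rpl39l, Rps27l and Rps4l) and Rps19bp1, which the name pattern takes in although its product binds a ribosomal protein and is not one. Where a gene had several probe sets (groups of short probes against 1 transcript), the one with the highest mean was used. A further 110 probe sets list several symbols, at least 1 of them of this name pattern, and were not used: 31 symbols, among them Rpl3, Rpl5, Rpl10, Rpl23, Rpl26 and Rplp1, stand only there and were not analysed here.

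The cells were CD4+ CD25- T cells of mice labelled C57B/6J, stimulated with antibodies to CD3 and CD28 and cultured with TGFb plus IL-6, cytokines that polarize T cells toward the Th17 type. Either halofuginone (HF), a plant alkaloid derivative that inhibits the prolyl-tRNA synthetase, or MAZ1310, labelled as its inactive derivative, was added at 10 nM. RNA was taken after 3 h or 6 h, giving 4 groups (HF 3 h, MAZ1310 3 h, HF 6 h and MAZ1310 6 h) of 3 arrays, 12 in all. All 4 groups shared the stimulation, the cytokines and the dose, and none was left without a compound. The labels call the replicates biological but do not say whether they came from separate mice or cultures, and the sources used here do not give the age or sex of the mice.

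As background, a cytosolic ribosome holds a single copy of nearly every ribosomal protein, so a cell makes these proteins in matched amounts from many separate genes. Their mRNAs are among the most abundant of a growing cell and start with a C followed by a run of pyrimidines, the 5′ terminal oligopyrimidine tract, through which mTOR and LARP1 control their translation. Resting T cells hold few ribosomes and build many after stimulation. A few ribosomal proteins have paralogs that can take their place, and several, among them Rpl5, Rpl11 and Rpl23, can bind the p53 inhibitor Mdm2 when ribosome assembly fails.

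The start sites of 7 genes are printed because the values below turn on the first 5 of them, with Rplp2 as the brightest gene and Rpl14 as a gene that differed with time. Each line gives 15 bases before and 15 bases from the annotated RNA start (RefSeq, GRCm38.p6), 5′ to 3′ on the gene's strand. Capitals mark a tract of at least 7 pyrimidines that begins with C within 20 bases of the start.
Rps27l, chr9:66946071-66946100, plus strand: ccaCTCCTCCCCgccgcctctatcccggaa
Rps27, chr3:90213634-90213663, minus strand: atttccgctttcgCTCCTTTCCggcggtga
Rpl22l1, chr3:28805493-28805522, plus strand: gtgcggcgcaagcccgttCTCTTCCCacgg
Rpl22, chr4:152325711-152325740, plus strand: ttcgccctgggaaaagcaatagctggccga
Rps6, chr4:86857353-86857382, minus strand: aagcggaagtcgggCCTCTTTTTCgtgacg
Rplp2, chr7:141447636-141447665, plus strand: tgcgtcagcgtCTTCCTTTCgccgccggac
Rpl14, chr9:120571502-120571531, plus strand: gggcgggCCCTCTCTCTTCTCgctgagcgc
The tract lies across the annotated start in Rps27, Rps6, Rplp2 and Rpl14, lies upstream of it in Rps27l and downstream in Rpl22l1, and these letters hold none in Rpl22.

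RefSeq entries were found for 44 of the 50 genes (52 starts). Such a tract was found in 24 of the 44 (54.5%), beside 22.6% of all 27025 genes of the same table. In the window from 250 bases before to 50 bases after the start, searched on both strands, CCGGAAG (the core bound by ETS factors) was in 21 of 44 (47.7%, all genes 9.93%) and AAGATGGC (the core bound by YY1) in 4 (9.09%, all genes 3.19%). TATAAA, the TATA box, was in 6 (13.6%, all genes 15.7%). TGATGNAA, the response element read by ATF4 with C/EBP proteins, was in 0 of the 44 windows and in 4.51% of all genes. These matches describe letters and not binding.

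The 250 bases before the start of Rps27l and Rps27 are given because the HF cultures differed from MAZ1310 in the first gene and not, past the threshold, in its paralog. Capitals mark AAGATGGC in Rps27, and no motif named in the preceding paragraph other than the tract lies within the Rps27l stretch, near whose end is the pyrimidine tract shown above. CCGGAAG begins 9 bases past the start of Rps27l, outside this stretch.
Rps27l, chr9:66945836-66946085, plus strand: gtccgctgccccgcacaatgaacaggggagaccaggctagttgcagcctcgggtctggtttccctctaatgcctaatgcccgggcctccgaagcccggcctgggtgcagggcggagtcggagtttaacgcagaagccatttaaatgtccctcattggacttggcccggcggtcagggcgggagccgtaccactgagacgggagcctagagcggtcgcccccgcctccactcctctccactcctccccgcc
Rps27, chr3:90213649-90213898, minus strand: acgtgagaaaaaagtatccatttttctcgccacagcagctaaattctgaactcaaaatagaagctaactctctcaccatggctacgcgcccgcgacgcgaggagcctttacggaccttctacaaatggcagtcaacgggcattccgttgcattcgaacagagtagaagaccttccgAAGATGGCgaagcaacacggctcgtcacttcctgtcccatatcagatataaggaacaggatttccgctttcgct

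The deposited values are probe set intensities on 1 common scale, with array medians between 97.3 and 102, and they are given here as log2. Within a group, arrays correlated at 0.992 to 0.997. The array of MAZ1310 3 h replicate 3 stood apart in the ribosomal protein genes: it was the lowest of the 12 arrays in 35 of 50 of them, beside 14.9% of all genes, and its median difference from the other 2 arrays of its group was -0.17. The main counts and the values it moves most are therefore also given without it. The difference between 3′ and 5′ actin probe sets, a sign of RNA quality, was 1.03 ± 0.22 (SD, n = 3) in MAZ1310 and 1.25 ± 0.28 in HF at 3 h (exact permutation test, two-sided, p = 0.5) and 0.86 ± 0.14 and 1.07 ± 0.26 at 6 h (exact p = 0.4), where the smallest p the design allows is 0.1. The same difference for Gapdh was 0.01 ± 0.14 in MAZ1310 and 0.29 ± 0.23 in HF at 3 h (exact p = 0.1), with every HF array above every MAZ1310 array, and -0.09 ± 0.11 and 0.10 ± 0.22 at 6 h (exact p = 0.3). All 8 T cell markers measured (Cd3e, Cd3d, Cd3g, Cd4, Cd28, Thy1, Cd5 and Il7r) were above the array median. So were 3 of 5 B cell, 3 of 5 CD8 or NK, 2 of 7 myeloid and 0 of 2 erythroid markers.

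The ribosomal protein genes were among the brightest on the array. The mean brightest probe set of an array stood at 14.57, and 33 of the 50 genes had a mean within 1 log2 unit of it; only 63 of all 18193 genes did. Rplp2, a stalk protein that helps recruit elongation factors, was the brightest at 14.43, followed by the small subunit proteins Rps29 at 14.33 and Rps28 at 14.27. The other 17 genes lay further below, down to the paralogs Rps4l at 6.73 and Rpl3l at 4.43 and the small subunit protein Rps16 at 4.73. The probe sets read here for Rps16 and Rpl39 (6.93) are thus dim although both are core proteins, and Rps16 and Rpl39 are 2 of the 15 genes that also appear on probe sets of several symbols. Rps6, Rpl14, Rpl37 and Rps27 are among the 15 too, and were read here at means of 10.45, 8.83, 11.36 and 8.78. Of the 110 probe sets of several symbols 59 lie near the maximum, and whether their values match those read here was not tested. Levels of different probe sets are not compared as amounts of RNA.

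**Figure D1:**
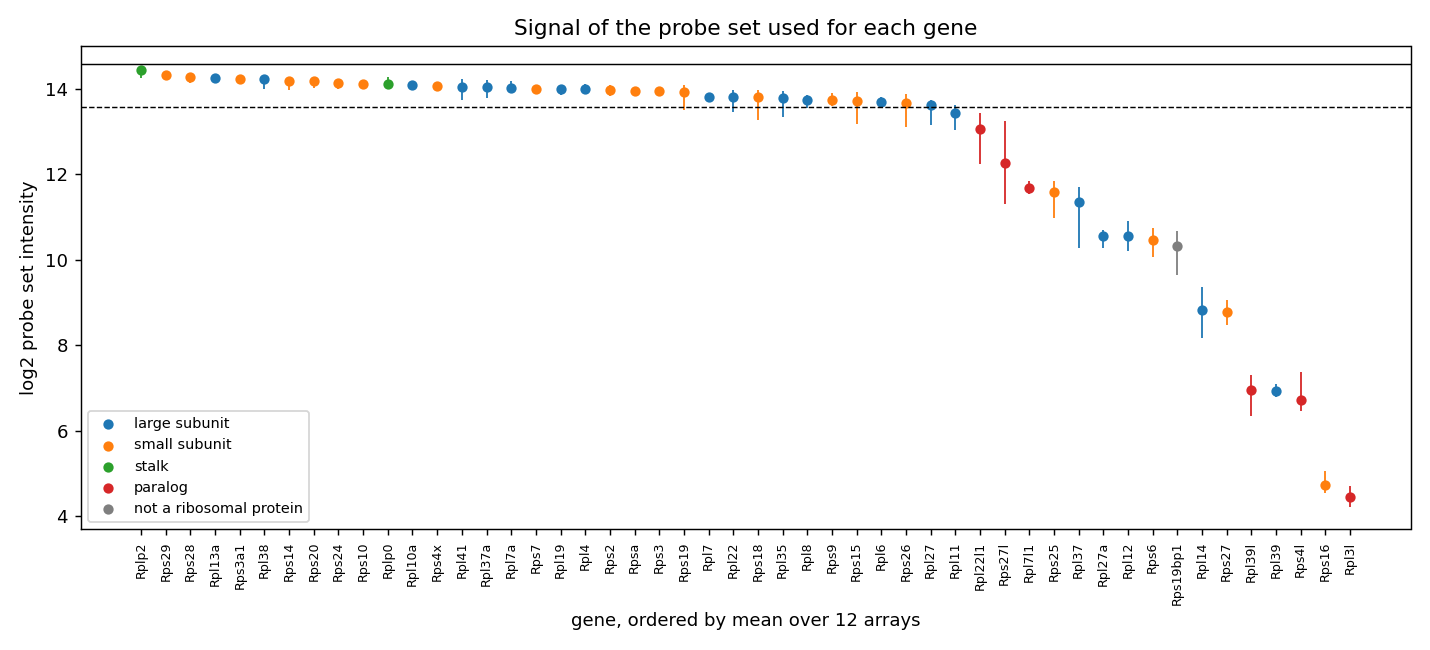
Signal (log2 intensity, vertical axis) of the probe set used for each of the 50 genes, ordered by mean along the horizontal axis. The mean is a point, the range over the 12 arrays a line and the role the colour. The solid horizontal line is the mean array maximum (14.57) and the dashed line lies 1 log2 unit below it. Of the 50 genes, 33 lie between the lines.

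Replicates varied less in the brightest genes. The median SD within a group was 0.05 on the log2 scale for the 33 genes near the maximum, 0.10 for the 17 further below and 0.10 for all genes. How much room a probe set this close to the maximum has to show an increase, and whether these were saturated, was not tested. Of the other 30 genes near the maximum, 0 rose and 2 fell with HF at 3 h (6.67%), beside 9.49% of all genes. At 6 h 4 of them rose and 1 fell (16.7%), beside 17% of all genes.

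HF was set against MAZ1310 to ask how the active compound altered expression. Of the 50 genes, 1 was higher and 1 lower with HF at 3 h: Rps6 rose and the paralog Rps27l fell. At 6 h, 1 was higher (Rpl3l, at a dim signal) and 1 lower (Rps27l). The 20 large subunit genes and both stalk genes gave no call at either time, and the 21 small subunit genes gave only Rps6 at 3 h. Tests were limma's moderated test in 1 fit over the 12 arrays, with Benjamini-Hochberg adjustment over 18193 genes and a call at an adjusted p under 0.05. The 2 calls are 4% of the 50 genes at each time; over all genes 9.49% were called at 3 h (2.83% higher, 6.66% lower) and 17% at 6 h (5.22% higher, 11.7% lower). The median log2 difference of the 50 genes was 0.04 at 3 h (all genes 0.03) and -0.02 at 6 h (all genes 0.02), and 5 and 6 of them had an unadjusted p under 0.05. Without MAZ1310 3 h replicate 3 the same 2 genes were called at 3 h, and at 6 h 2 were higher (Rpl22l1, Rpl3l) and 4 lower (Rps15, Rpl37a, Rpl14, Rps27l), beside 8.87% and 20.3% of all genes. The 3 h median then turned to -0.01 (all genes 0.02), with 23 of 50 above 0.

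**Figure D2:**
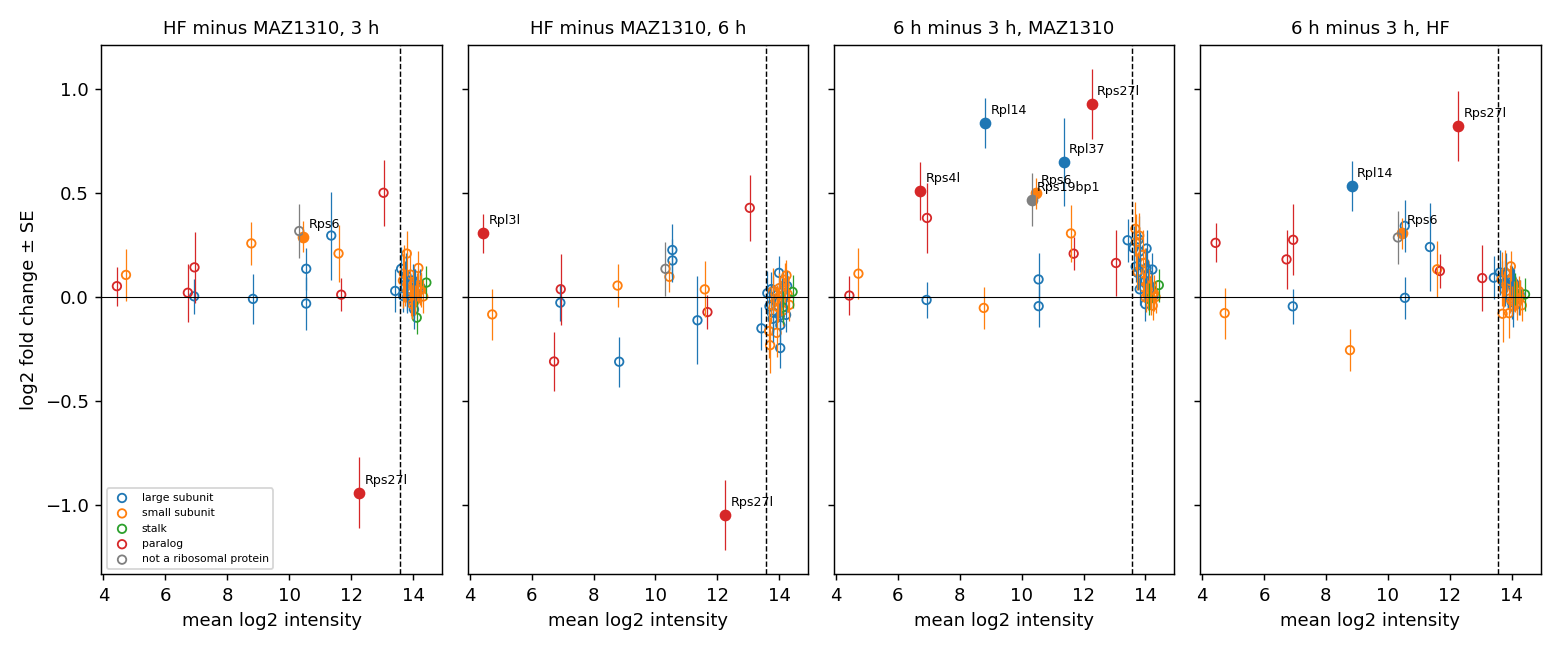
Log2 difference with its SE (vertical axis) of each of the 50 genes against its mean log2 intensity (horizontal axis), for HF against MAZ1310 at 3 h and 6 h and for 6 h against 3 h in each compound; filled points passed the threshold. The dashed vertical line marks 1 log2 unit below the array maximum, and no gene to its right is filled in any panel.

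For the 33 genes near the maximum, the differences between the compounds were small and their intervals narrow. Their log2 differences lay between -0.10 and 0.21 at 3 h and between -0.25 and 0.11 at 6 h, none passed the limma threshold, and 0 and 1 had an unadjusted p under 0.05. The lowest and highest bounds of their 95% intervals were -0.27 and 0.44 at 3 h and -0.52 and 0.28 at 6 h. Without MAZ1310 3 h replicate 3 the 3 h differences lay between -0.18 and 0.07, with bounds of -0.35 and 0.23, and at 6 h Rps15 and Rpl37a passed as lower. The 2 stalk proteins were in this range: Rplp0 was at 13.98 to 14.12 in HF 3 h and at 14.11 to 14.27 in MAZ1310 3 h, and Rplp2 at 14.43 to 14.47 and 14.24 to 14.48. The HF difference of Rplp0 was -0.10 ± 0.08 (SE) at 3 h and -0.05 ± 0.08 at 6 h, and that of Rplp2 was 0.07 ± 0.08 and 0.02 ± 0.08. Rpsa, which also serves as a laminin receptor at the cell surface, differed by 0.03 at 3 h and -0.02 at 6 h. Rpl13a, known for a role in translational silencing outside the ribosome, differed by 0.04 and 0.05.

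Genes whose 3 HF arrays all lay on one side of the 3 MAZ1310 arrays were also counted. Of the 50 genes 3 were higher in this sense at 3 h (Rps14, Rpl22l1 and Rps6) and 1 lower (Rps27l), beside 22.8% of all genes (11.2% higher, 11.6% lower). With the 2 other MAZ1310 arrays alone, 4 were higher and 8 lower at 3 h, beside 16.5% and 16.3% of all genes. At 6 h 9 were higher and 14 lower, beside 36.8% of all genes (16.4% higher, 20.4% lower). The 14 lower ones included Rpl11, Rpl22, Rpl37a and Rps15, and the 9 higher ones Rpl13a, Rpl4 and Rpl10a; of these 23 genes only Rps27l and Rpl3l passed the limma threshold.

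Rps27l, a paralog of Rps27 and a known p53 target gene, had the largest difference between the compounds of the 50 genes at both times. In MAZ1310 at 3 h its log2 intensity was 12.50, 12.68 and 11.71, and in HF at 3 h it was 11.30, 11.33 and 11.44. At 6 h it was 13.19, 13.23 and 13.25 in MAZ1310 and 12.16, 12.17 and 12.19 in HF. The groups did not overlap at either time, and the low MAZ1310 array at 3 h is replicate 3. Rps27l fell by 0.94 ± 0.17 (SE) at 3 h, to 0.521 of the MAZ1310 level (95% interval on the log2 scale -1.30 to -0.58, limma adjusted p = 0.0022), and by 1.05 ± 0.17 at 6 h, to 0.484 of it (-1.41 to -0.69, adjusted p = 0.000415). Without MAZ1310 3 h replicate 3 it fell by 1.23 ± 0.08 at 3 h (adjusted p = 1.1e-06) and by 1.05 at 6 h (adjusted p = 3.1e-07). At 3 h the call was lost when all arrays of replicate 1 were left out (-0.81, adjusted p = 0.089) or all of replicate 2 (-0.73, adjusted p = 0.079). A fit with the replicate number as a block and the actin difference as a covariate left -0.64 (adjusted p = 0.319) at 3 h and -0.77 (adjusted p = 0.135) at 6 h.

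The 3 probe sets of Rps27l gave like values: the HF differences were -0.94, -0.83 and -0.91 at 3 h and -1.05, -0.82 and -1.06 at 6 h, each past the threshold in limma over all probe sets. All 3 carry a suffix for probes able to bind several transcripts, of the same or of other genes (_a_at for the probe set used, _x_at for the others). No plain probe set of the gene was found, and whether these also bind Rps27 was not tested. In the same arrays at 6 h, 7 of 8 T cell markers were lower with HF (median -0.62) and their summed intensity was 11818 to 13093 in HF against 18084 to 18721 in MAZ1310; at 3 h 0 of 8 were called by limma (1 at an unadjusted p under 0.05), with sums of 15035 to 17819 and 14643 to 20595. None of the 19 markers of B, myeloid, CD8 or NK and erythroid cells was called between the compounds at either time, with 1 of them at an unadjusted p under 0.05 at each time. The part of the T cell markers in the 6 h results was not tested.

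Rps27, the core small subunit protein of which Rps27l is the paralog, also appears on probe sets of several symbols, which were not used. Its only probe set of 1 symbol had a mean of 8.78. It read 8.90, 8.80 and 8.47 in MAZ1310 3 h and 9.06, 8.87 and 9.02 in HF 3 h, so the groups overlapped. It read 8.70, 8.65 and 8.67 in MAZ1310 6 h and 8.76, 8.66 and 8.76 in HF 6 h. The HF difference was 0.26 ± 0.10 at 3 h (adjusted p = 0.144) and 0.05 ± 0.10 at 6 h (95% interval -0.16 to 0.27). It passed the threshold at 3 h when MAZ1310 3 h replicate 1 was left out (0.34, adjusted p = 0.0431), and without MAZ1310 3 h replicate 3 the difference was 0.13 (adjusted p = 0.455).

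Rpl22l1, the paralog of the large subunit protein Rpl22, was higher on every HF array at both times but did not pass the threshold. At 3 h it was 13.06, 12.91 and 12.24 in MAZ1310 and 13.21, 13.11 and 13.39 in HF. At 6 h it was 12.89, 12.83 and 12.98 in MAZ1310 and 13.35, 13.18 and 13.44 in HF. The difference was 0.50 ± 0.16 at 3 h (95% interval 0.16 to 0.84, limma adjusted p = 0.0618) and 0.43 ± 0.16 at 6 h (0.09 to 0.76, adjusted p = 0.0839). It passed at 3 h with the replicate number as a block (adjusted p = 0.0487) and without MAZ1310 3 h replicate 1 (0.66, adjusted p = 0.0141). Without MAZ1310 3 h replicate 3 it was 0.25 at 3 h (adjusted p = 0.176) and passed at 6 h (0.43, adjusted p = 0.00389), as it did at 6 h without all arrays of replicate 3 (0.41, adjusted p = 0.0198). Rpl22 itself, a large subunit protein needed for T cell development that can repress its paralog, differed by 0.03 (95% interval -0.18 to 0.23) at 3 h and -0.08 (-0.28 to 0.13) at 6 h.

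**Figure D3:**
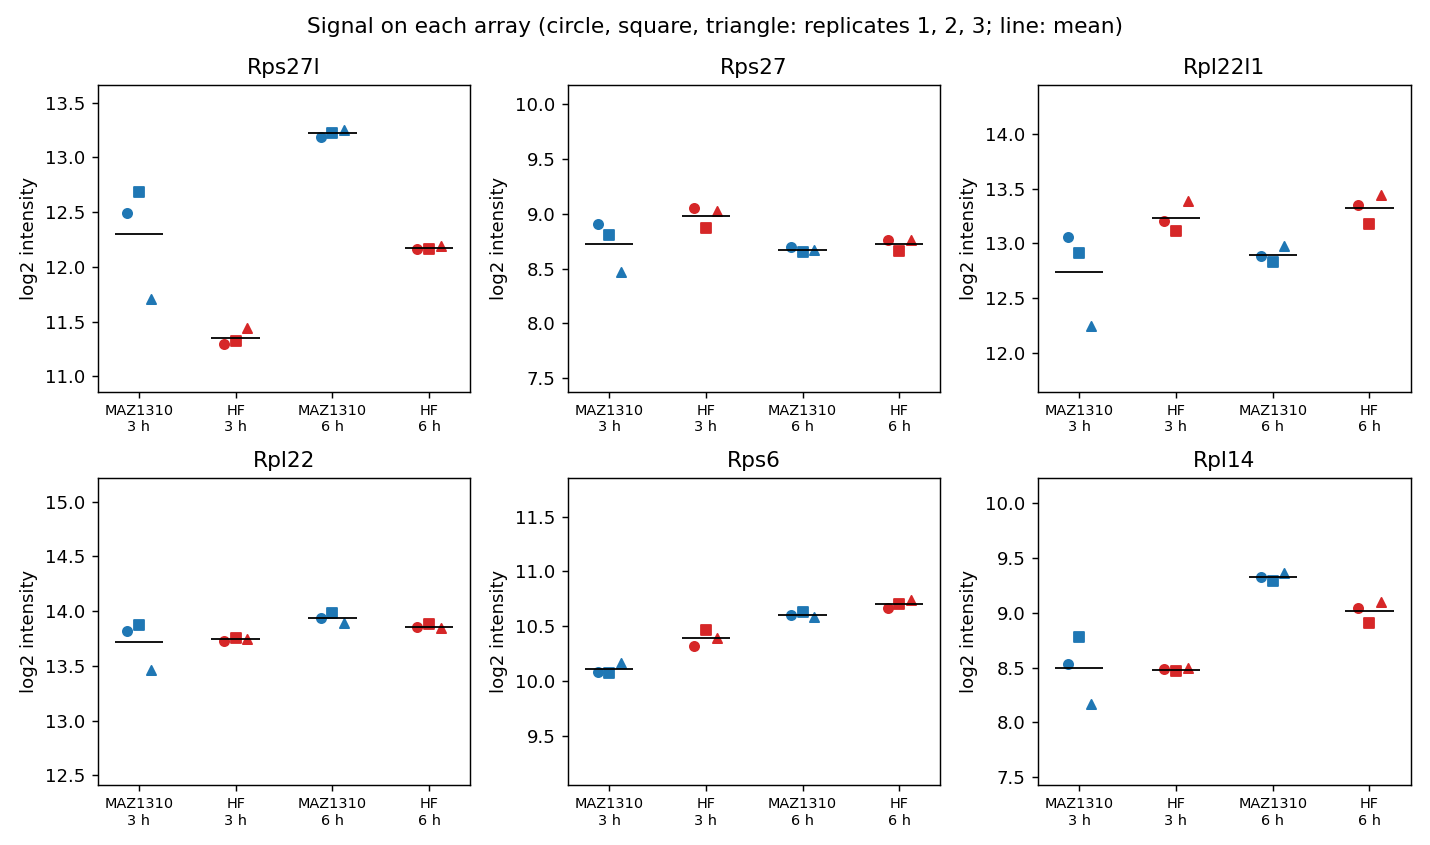
Log2 intensity (vertical axis) of Rps27l, Rps27, Rpl22l1, Rpl22, Rps6 and Rpl14 on each of the 12 arrays by group (horizontal axis), with MAZ1310 in blue, HF in red, circle, square and triangle for replicates 1, 2 and 3, and a line at the mean. The HF arrays of Rps27l lie below the MAZ1310 arrays of the same time, and the triangle of MAZ1310 3 h is the lowest of its group for Rps27l, Rps27, Rpl22l1, Rpl22 and Rpl14 but the highest for Rps6.

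Rps6 is the small subunit protein that S6 kinases phosphorylate downstream of mTOR. At 3 h it was 10.08, 10.07 and 10.17 in MAZ1310 and 10.32, 10.47 and 10.40 in HF, with no overlap. At 6 h it was 10.60, 10.63 and 10.58 in MAZ1310 and 10.66, 10.70 and 10.74 in HF, again apart but closer. Rps6 rose with HF by 0.29 ± 0.07 at 3 h (adjusted p = 0.0213), and the difference at 6 h was 0.10 ± 0.07 (adjusted p = 0.468). The 3 h call was lost in 9 of 24 alternative settings, among them those without MAZ1310 3 h replicate 2 (adjusted p = 0.073), HF 3 h replicate 2 (0.0875) or HF 3 h replicate 3 (0.0583), while without MAZ1310 3 h replicate 3 it held (0.32, adjusted p = 0.0189). A second, dim Rps6 probe set (mean 5.44) differed by 0.03 at 3 h, and with the probe sets averaged the 3 h difference was 0.16 (limma adjusted p = 0.297).

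Among the other paralogs, Rpl3l, the striated muscle counterpart of Rpl3, was the dimmest gene of the 50, at a mean of 4.43. That is below the array median of about 6.64 and below the 2 erythroid markers measured (5.61 and 6.02), only 7.07% of all genes were dimmer, and whether its signal is above background was not tested. At 6 h it read 4.26, 4.26 and 4.52 in MAZ1310 and 4.70, 4.59 and 4.67 in HF, without overlap. The difference of 0.30 ± 0.09 (adjusted p = 0.0345) is thus one of a dim signal, and its call was lost in 9 of 23 alternative settings, including each one without MAZ1310 6 h replicate 1 or 2 (adjusted p = 0.144 and 0.142) or any single HF 6 h array (0.0526 to 0.123). Rps4l, a paralog of Rps4x, differed by 0.02 at 3 h and -0.31 ± 0.14 at 6 h (adjusted p = 0.165); without HF 6 h replicate 3 it passed (-0.46, adjusted p = 0.0356). Rpl7l1, a paralog of Rpl7, differed by 0.01 and -0.07, and Rpl39l, a paralog of Rpl39 known from testis, by 0.14 and 0.04. Their partners were as close: Rps4x differed by -0.02 and -0.02, Rpl7 by 0.00 and 0.03 and Rpl39 by 0.00 and -0.03.

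Of the core genes, Rpl14 of the large subunit came nearest to a call at 6 h. It was 9.33, 9.29 and 9.37 in MAZ1310 and 9.04, 8.91 and 9.10 in HF, all HF arrays lower, with a difference of -0.31 ± 0.12 (adjusted p = 0.0943). It passed without MAZ1310 3 h replicate 3 (adjusted p = 0.0126) and without MAZ1310 3 h replicate 2 (0.0359); those arrays enter the 6 h comparison only through the common spread. Rpl37a differed by -0.25 ± 0.10 at 6 h (adjusted p = 0.102) and Rps15, a small subunit protein, by -0.23 ± 0.14 (adjusted p = 0.307; 0.0321 without MAZ1310 3 h replicate 3). Rpl11, Rps7 and Rps3 are core proteins that can bind Mdm2. Rpl11 differed by 0.03 at 3 h and -0.15 at 6 h, Rps7 by 0.06 and 0.04 and Rps3 by -0.02 and -0.02; none of these 3 passed. Rps19bp1, which binds Rps19 and is known as a regulator of the deacetylase Sirt1, differed by 0.32 ± 0.13 at 3 h (adjusted p = 0.155; 0.47 and adjusted p = 0.0275 without MAZ1310 3 h replicate 2, and 0.15 and adjusted p = 0.504 without replicate 3) and by 0.13 at 6 h.

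Whether the HF difference changed between the times was tested as the 6 h difference minus the 3 h difference. None of the 50 genes passed in limma, none had an unadjusted p under 0.05, and over all genes 1.8% were called (0.885% higher, 0.918% lower). The value for Rps27l was -0.11 (95% interval -0.62 to 0.40). The values furthest from 0 were those of Rpl37 (-0.41), Rps15 (-0.34), Rps4l (-0.33) and Rpl14 (-0.30), with adjusted p from 0.511 to 0.686. For Rpl37, a large subunit protein, the MAZ1310 3 h arrays alone ran from 10.26 to 11.38. Without MAZ1310 3 h replicate 3 the value of Rps27l turned to 0.19 (95% interval -0.05 to 0.43), and those of Rpl37, Rps15 and Rpl14 were -0.04, -0.12 and -0.14. Rpl12 of the large subunit (0.39), Rps4l (-0.35) and Rpl3l (0.26) then lay furthest from 0, and again none passed the threshold. An unadjusted p under 0.05 was then seen for 2 genes, Rpl12 (95% interval 0.05 to 0.73) and Rps6 (-0.22, -0.44 to -0.0004).

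Time was compared within each compound. From 3 h to 6 h in MAZ1310, 6 of the 50 genes rose and 0 fell: Rps27l, Rpl14, Rpl37, Rps4l, Rps6 and Rps19bp1. Over all genes 19.8% were called (12.1% higher, 7.64% lower), so the 6 rises are 12% of the 50 beside 12.1%. The median difference was 0.12 (all genes -0.01), 41 of 50 were above 0, and 17 had an unadjusted p under 0.05. By arrays without overlap, 21 were higher and 0 lower, beside 30.5% of all genes (17.5% higher, 13.1% lower). These values rest in part on MAZ1310 3 h replicate 3. Without it the median was 0.05, 36 of 50 were above 0, and 5 rose (Rps6, Rpl14, Rps27l, Rpl7l1 and Rps4l) and 0 fell, beside 19.1% of all genes. By arrays without overlap 23 were then higher and 3 lower, beside 23% and 19.8% of all genes.

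In HF, 3 of the 50 genes rose from 3 h to 6 h (Rps27l, Rpl14 and Rps6) and 0 fell, beside 15.6% of all genes (8.33% higher, 7.27% lower). The median was 0.06 (all genes -0.01), 35 of 50 were above 0, and 7 had an unadjusted p under 0.05. By arrays without overlap, 16 were higher and 2 lower, beside 32.8% of all genes (17% higher, 15.8% lower). Although none of these arrays is MAZ1310 3 h replicate 3, leaving that array out alters the common spread, and then 5 rose (Rps6, Rpl14, Rpl12, Rps27l and Rps19bp1) and 1 fell (Rps27), beside 19% of all genes. T cell markers moved with time as well, with 1 higher and 7 lower of 8 in HF and 1 higher and 3 lower in MAZ1310; their part in the time differences was not tested.

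The genes that rose with time in both compounds were Rps27l, Rpl14 and Rps6. Rps27l rose by 0.93 ± 0.17 in MAZ1310 (adjusted p = 0.00093) and 0.82 ± 0.17 in HF (adjusted p = 0.0031); without MAZ1310 3 h replicate 3 the first value was 0.63. Its HF 6 h arrays (12.16 to 12.19) remained below MAZ1310 replicates 1 and 2 at 3 h. Rpl14 was 8.53, 8.78 and 8.16 in MAZ1310 3 h and 8.48, 8.47 and 8.50 in HF 3 h, below every 6 h array. It rose by 0.83 ± 0.12 in MAZ1310 (adjusted p = 0.00012) and 0.53 ± 0.12 in HF (adjusted p = 0.0054). Rps6 rose by 0.50 ± 0.07 in MAZ1310 (adjusted p = 0.00017) and 0.30 ± 0.07 in HF (adjusted p = 0.0094). Its second, dim probe set (mean 5.44) differed by -0.17 in MAZ1310 and -0.20 in HF, neither past the threshold. With the probe sets averaged, Rps6 differed by 0.16 in MAZ1310 (limma adjusted p = 0.219) and 0.05 in HF (adjusted p = 0.781), so its rise with time is uncertain. In HF, leaving out all arrays of replicate 1 ended the calls of all 3 (adjusted p = 0.0827 for Rps27l, 0.123 for Rpl14 and 0.141 for Rps6), and that of Rps6 also ended without HF 3 h replicate 1 (0.0515), without all arrays of replicate 2 (0.0561) or of replicate 3 (0.0732).

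The other 3 genes that rose in MAZ1310 rested on fewer arrays. Rpl37 was 11.38, 11.33 and 10.26 at 3 h and 11.56, 11.64 and 11.71 at 6 h, a rise of 0.65 ± 0.21 (adjusted p = 0.042) that was 0.28 without MAZ1310 3 h replicate 3 (adjusted p = 0.091); the call was lost in 17 of 23 alternative settings. Rps4l rose by 0.51 ± 0.14 (adjusted p = 0.016), from 6.47 to 6.58 at 3 h to 6.85 to 7.37 at 6 h; without MAZ1310 6 h replicate 3 it was 0.35 (adjusted p = 0.0958) and without MAZ1310 3 h replicate 2 it was 0.47 (0.0527), and without all arrays of replicate 1 the adjusted p was 0.0957. Rps19bp1 rose by 0.47 ± 0.13 (adjusted p = 0.016), which was 0.30 without MAZ1310 3 h replicate 3 (adjusted p = 0.0626) and 0.41 without MAZ1310 6 h replicate 3 (0.0756), with adjusted p = 0.11 and 0.204 without all arrays of replicate 1 or 3. With the probe set used, the 33 genes near the maximum gave no call by limma in either compound. Their differences ran from -0.04 to 0.33 in MAZ1310 and from -0.08 to 0.15 in HF. Of them 7 and 0 had an unadjusted p under 0.05. Other probe sets of Rpl13a, Rpl22, Rps3, Rpsa and Rpl41 did pass as higher in MAZ1310, by 0.31 to 0.53. With probe sets averaged, Rpl22 passed in both compounds (0.34 and 0.26, limma adjusted p = 0.0102 and 0.048). Rpl13a then passed in MAZ1310 (0.25, adjusted p = 0.026). Of the other 30 genes near the maximum, 1 rose and 8 fell in MAZ1310 (30%), beside 19.8% of all genes. In HF 2 of them rose and 7 fell (30%), beside 15.6% of all genes.

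The 50 genes have 106 probe sets of 1 symbol in all, and 24 genes have more than 1. Of the 106, 71 carry a suffix for probes able to bind several transcripts, of the same or of other genes. All probe sets of a gene had the same sign in 15 of these 24 genes for HF at 3 h and also in 15 at 6 h. The 55 probe sets near the maximum gave 0 calls between the compounds over all probe sets in limma at either time. The 51 further below gave 4 calls at 3 h, the Rps6 probe set upward and the 3 of Rps27l downward. At 6 h they gave 6, with the 3 of Rps27l and 1 of Rps3 downward and 1 each of Rpl3l and Rpl35 upward. Over all 34945 probe sets of 1 symbol 6.91% were called at 3 h and 13.4% at 6 h. Those of Rps3 and Rpl35 are dim probe sets of genes whose bright one did not pass. Rps3, a small subunit protein that also acts in DNA repair, is such a case: the probe set used (mean 13.94) differed by -0.02 at 6 h and a dimmer one (mean 9.45) by -0.51 (adjusted p = 0.00055). The opposite sign was seen for Rpl35 of the large subunit, whose brightest probe set (13.79) differed by -0.11 and whose dimmest (7.90) rose by 0.45 (adjusted p = 0.0211). For Rps18, at 3 h the 3 bright probe sets differed by 0.17 to 0.21 and the 3 dim ones by -0.28 to -0.22, none past the threshold. With time in MAZ1310, limma called 1 of the 55 probe sets near the maximum and 12 of the 51 further below, all upward. In HF it called 0 and 8, again all upward. Over all probe sets of 1 symbol 16.3% were called with time in MAZ1310 and 12.7% in HF. Which probe set follows the mRNA of a gene whose probe sets differ was not tested.

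**Figure D4:**
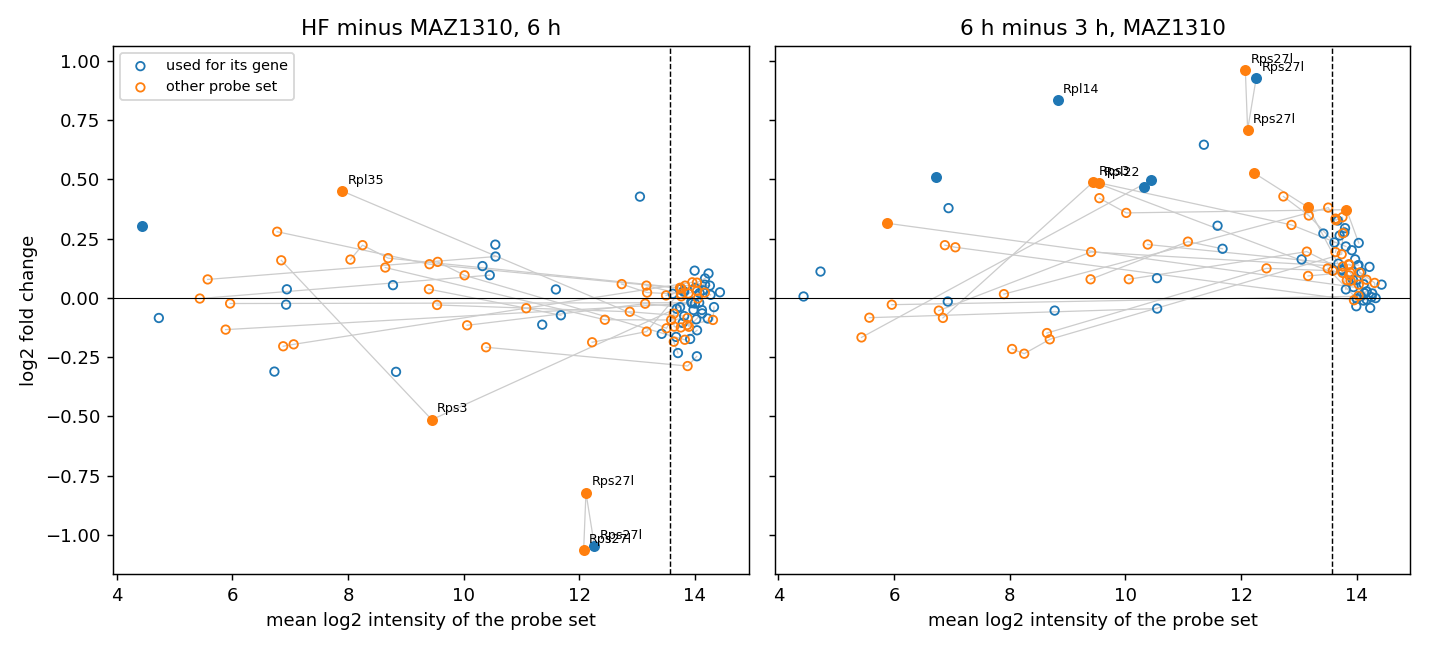
Log2 difference (vertical axis) of all 106 probe sets against their mean log2 intensity (horizontal axis), for HF against MAZ1310 at 6 h and for 6 h against 3 h in MAZ1310. Blue points are the probe sets used, orange points the others, grey lines join probe sets of a gene and filled points passed the threshold over all probe sets; the filled points lie below the brightest signals apart from 1 Rpl41 probe set in the time comparison.

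Other genes of the pathway came from lists of known members. Of the mRNAs that share the pyrimidine tract but encode other proteins, 14 of 15 were measured: Hnrnpa1, an RNA-binding protein, was higher with HF at 3 h (0.30) and 6 h (0.47), the histone chaperone Nap1l1 was lower at 3 h (-0.46) and the initiation factor subunit Eif3f lower at 6 h (-0.34), and no others passed. Their median differences were -0.07 at 3 h and -0.01 at 6 h. At 3 h 6 of the 14 had an unadjusted p under 0.05, beside 3990 of all 18193 genes. Hnrnpa1 was the one upward. Downward were Nap1l1, Eif4b (-0.30), Eef2 (-0.24), Eif3f (-0.21) and Pabpc1 (-0.19). At 6 h 2 of the 14 had such a p, beside 4846 of all genes. Over all genes 2.83% were higher and 6.66% lower at 3 h, and 5.22% and 11.7% at 6 h. Fau, the ribosomal protein gene with another kind of symbol that was measured (1 of 4), differed by 0.25 at 3 h (adjusted p = 0.245) and 0.02 at 6 h. None of 6 S6 kinase genes was called between the compounds in limma, with 0 and 1 at an unadjusted p under 0.05.

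Of 13 chaperones, exporters and late assembly factors measured, 2 were higher and 0 lower with HF at each time, beside the 2.83% higher and 6.66% lower of all genes at 3 h and the 5.22% and 11.7% at 6 h. At 3 h 8 of the 13 had an unadjusted p under 0.05, in both directions; among those that missed the threshold Heatr3 differed by -0.39, Pdcd2l by -0.28 and Grwd1 by -0.26. The called ones were Pdcd2, a chaperone of Rps2 (0.35), and Nmd3, the export adaptor of the large subunit (0.29), at 3 h, and Tsr2, the chaperone of Rps26 (0.34), and Nmd3 (0.25) at 6 h; the medians were -0.11 and 0.02. Of 5 translation regulators, Eif4ebp1, the repressor of cap-dependent translation, rose by 2.79 ± 0.13 at 3 h and by 2.40 at 6 h. Larp1, which binds the pyrimidine tract, rose by 0.38 at 6 h, and none was called lower. At 3 h 3 of the 5 had an unadjusted p under 0.05. Among them Eif4ebp2 differed by -0.41 (limma adjusted p = 0.0909) and Rptor by -0.19 (adjusted p = 0.188). With time in MAZ1310, 1 of the 14 tract mRNAs (Eef1d) and 3 of the 13 assembly factors rose, beside 12.1% of all genes. The assembly factors were led by Bccip (0.43), a chaperone of Rpl23. In HF 2 tract mRNAs (Nap1l1 by 0.68 and Eef1d by 0.26) and 2 assembly factors (Grwd1 and Bccip) rose, beside 8.33% of all genes. The kinase gene Rps6kb2, 1 of 6 S6 kinase genes measured, fell by 0.50 in HF, where 7.27% of all genes were lower.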

How the data were processed

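The authors deposited 1 intensity per probe set and array, on a linear scale and computed with RMA per the submitters' processing notes; the sources used here do not give the RMA version or settings. RMA puts all arrays on 1 distribution, so a change shared by most genes would not show. Of 45101 probe sets, 64 controls, 932 with several gene symbols and 9160 with no entry in the platform annotation were left out; 34945 remained, and the probe set of highest mean stood for each of 18193 genes. Values were taken as log2. limma 3.58.1 in R 4.3.3 was fitted to all 12 arrays with 4 group means, so the groups share 1 estimate of the spread, with no covariate; p-values were adjusted by Benjamini-Hochberg over all genes and called under 0.05. No filter was set. The number of arrays, 3 in each group, limits the precision, and the labels do not say whether replicates were separate cultures, so p-values may measure technical spread.

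Groups came from the titles. Members and gene lists were chosen with earlier results of these data known. Named genes were the called ones of each comparison (at most 12 for HF against MAZ1310, 6 for time, or the 4 furthest from 0 where none was called), the 3 brightest and 3 dimmest, and fixed names (paralogs with their partners, stalk proteins, Mdm2 binders, Rps6, Rpsa, Rpl13a, Rps19bp1); Rpl14, Rpl37a, Rps15, Rps14, Rpl35, Rps18, Rpl41, Rpl12, Rps26, Rpl4 and Rpl10a were also named where other settings or probe sets set them apart, after their values were seen. For arrays of equal replicate number, the deviations from the group means were correlated over genes. HF with MAZ1310 had values between 0.242 and 0.381 for the 3 h arrays. For the 6 h arrays they lay between 0.287 and 0.391. Across the times, HF arrays had values between 0.322 and 0.502, and MAZ1310 arrays between 0.0289 and 0.252. The MAZ1310 range across the times overlaps that of HF with MAZ1310 at 3 h. Arrays of different numbers were not compared in this way, so these values cannot show whether the numbers mark pairs. The main fit treated the arrays as unpaired, and the replicate block was used only in alternatives. The script was tested on simulated data with known changes. Alternatives covered normalization, choice of probe set, a filter on dim genes, the replicate block, the actin difference, the groups fitted and leaving out arrays.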

Additional observations from a re-analysis of the deposited data

How the results depend on the processing

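The number of called ribosomal protein genes stayed within 1.5 times its reported value in 90 of 124 alternatives. These include a setting that dropped the genes near the maximum from the same fit. As none of those genes was called, that setting could not alter a count. For the difference between the times, where 0 was reported, a count of 0 was taken as unchanged. For HF at 3 h (2 genes reported) it was 1 when probe sets of a gene were averaged, without suffixed probe sets (which leaves Rps27l without a value) and with only the 2 groups compared, 4 with every probe set counted, and 0 to 4 when arrays or replicates were left out. For HF at 6 h (2 reported) it was 1 after cyclic loess or without dim genes, 6 with every probe set or with only the 2 groups, and 1 to 6 with arrays left out. For time in MAZ1310 (6 reported) it was 13 with every probe set and 3 to 10 with arrays left out, and for time in HF (3 reported) 8 with every probe set, 6 with only the 2 groups and 0 to 6 with arrays left out. When the replicate block was joined by the actin difference, limma gave 0 genes at 3 h, 0 at 6 h, 2 for time in MAZ1310 and 0 for time in HF (6, 2, 4 and 3 at an unadjusted p under 0.05); calls over all genes were fewer too, at 2.3%, 5%, 10.4% and 9.54%. The replicate block alone gave 3 genes at 3 h, adding Rpl22l1 to the reported calls, and 2, 0, 6 and 3 in the other comparisons. The difference between the times gave 1 gene without suffixed probe sets, where Rps3 read by its dimmer probe set had -0.48 (adjusted p = 0.0485) against 0.00 with the probe set used, and 0 in every setting with arrays left out. For single named genes, 2883 of 2969 alternative values stayed on their side of the threshold, of which 2675 kept their sign and 208, never past the threshold, turned it; 61 lost a call, 24 gained one and 1, Rps3, reversed. The causes of these shifts were not tested.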
